A study of Sus scrofa with 18 samples.

Results

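The genes described here are the 100 whose transcripts changed most in their share of the gene's counts between GD60 and GD90 in the fetal pig brain. They were chosen by that measured change. A transcript's share is its count divided by the summed counts of the gene's transcripts that had a mean of at least 50 counts over the 12 libraries of GD60 and GD90. Of 31908 genes in the transcript table, 12716 had more than 1 transcript and 253 had at least 2 transcripts above that minimum. The 100 members are the top of these 253. In each gene the transcript of largest gain is called the rising one and that of largest loss the falling one, as names for the direction of the mean share. Because the share at GD60 and GD90 selected them, all values of that contrast are given as a description without a test.

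Whole brains of crossbred pig fetuses (Landrace x Large White gilts, semen of the LR-M6 line) were sequenced as poly(A)-selected RNA at GD45, GD60 and GD90 of gestation. Each day was represented by 3 females and 3 males, none of them treated. Every gestation day held 3 pairs of a female and a male with the same litter size, and the labels do not name the dam. A library held 15118843 to 19729783 gene counts and 4566025 to 6196886 transcript counts, of which 215285 to 291732 belonged to the transcripts of the 253 genes. The tissue label was checked with marker genes. SNAP25, of neurons, lay at 184 to 284 CPM (counts scaled to the library's gene-table total) at GD45. It lay at 243 to 314 at GD60 and 533 to 637 at GD90. GFAP, of astrocytes, lay at 14.8 to 54.4, 108 to 144 and 604 to 922. Summed over 11 listed neuron genes, the medians were 8279, 9311 and 10498 CPM. For 12 astrocyte and radial glia genes they were 2943, 2605 and 3842, so this sum did not follow GFAP from GD45 to GD60. Genes of skin, muscle and bone had 293, 252 and 144, and erythroid genes 349, 205 and 163.

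A gene can give several mature RNAs through alternative first exons, cassette exons and alternative last exons. Alternative ends decide which protein terminus and which stretch behind the stop codon an RNA carries, and with it where the RNA or protein goes in the cell. RNA-binding proteins of the SR, hnRNP, PTB, RBFOX, MBNL and quaking families act on the choice of cassette exons and last exons. The brain is known for using many alternative exons as neurons and myelin-forming cells mature.

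Judged from the counts, the deposited transcript table holds reads on bases that a single transcript of a gene covers, here called exclusive bases. A share therefore reads the balance between such stretches, and not whole RNA molecules. For the members, these transcripts held between 1.32% and 95.3% of the gene's counts in the gene table, with a median of 41.9%.

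Some sequences mark where the counted isoforms part. They were read from the Sscrofa11.1 reference of RefSeq at coordinates of the deposited tables and of the RefSeq coding annotation. The first is a 78-base exon of MBP (chr1:147656766-147656843, plus strand) that only the rising transcript holds, shown with its exon in capitals and 10 intron bases on each side. The next are the alternative coding ends of CDC42 on chromosome 6 (plus strand), at 80087740 to 80087817 for the rising transcript and at 80086240 to 80086329 for the falling one, with the last codons and the stop in capitals. The last is the final coding stretch of the falling QKI transcript on chromosome 1 (4738531 to 4738547, minus strand), with its stop codon in capitals.
MBP exon: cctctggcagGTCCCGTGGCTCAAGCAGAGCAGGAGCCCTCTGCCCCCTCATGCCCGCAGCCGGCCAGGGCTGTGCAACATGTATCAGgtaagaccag
CDC42 rising end: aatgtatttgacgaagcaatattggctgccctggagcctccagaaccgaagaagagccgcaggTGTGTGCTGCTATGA
CDC42 falling end: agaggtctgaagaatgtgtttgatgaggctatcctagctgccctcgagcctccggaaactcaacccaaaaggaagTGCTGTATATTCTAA
QKI falling end: ccgccaccggcaacTAA

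The largest change over the 100 members was 67.7 points of share, the smallest 5.37 and the median 9.11 points, where a point is 1 percent of the gene's counted transcripts. A change of 10 points was exceeded by 42 members and one of 20 points by 10 members. In 19 of the 100 members the 6 libraries of GD60 and the 6 of GD90 did not overlap, against 7.91% of all 253 genes, a difference that the choice of the members fixes. The other 81 members had overlapping libraries, and in 61 of the 100 the change was larger than 2 standard errors (SE), beside 28.9% of the 253 genes. The choice by size of change raises both counts, and nothing is read from them. The limit of 100 fell in a region without a gap. The last genes inside it were SFPQ with 5.48 points, ALG14 with 5.37 and ENDOV with 5.37, and the first genes outside it were AMIGO1 with 5.25, NCBP2 with 5.18 and PRKCZ with 5.13. Among the genes outside the limit, only SYNCRIP (5.06 points), named here after its values were seen, had libraries without overlap.

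**Figure D1:**
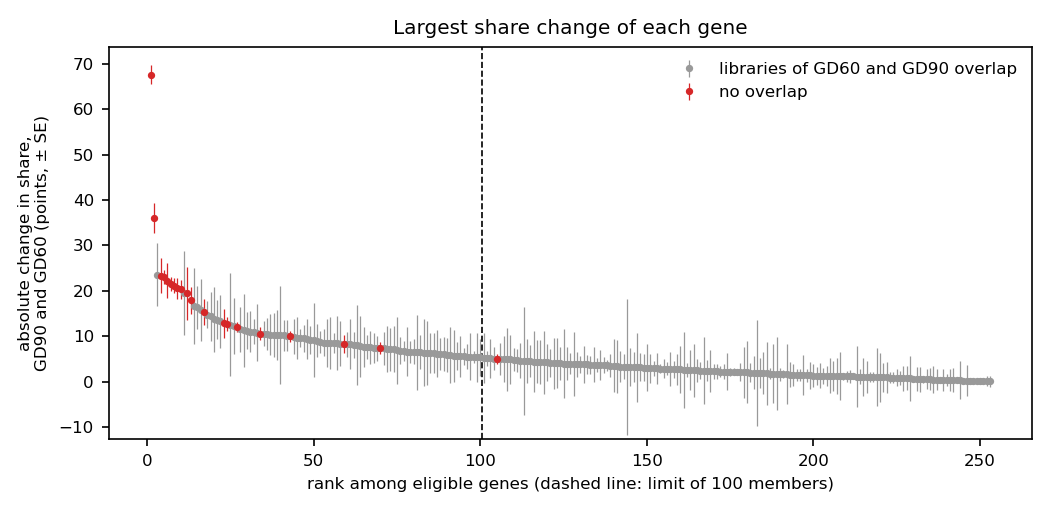
Absolute change in mean share between GD60 and GD90 in points (y axis, error bars are ± SE over 6 and 6 libraries) for the 253 genes in order of that change (x axis). Red points are the 20 genes without overlap of the libraries, of which 19 lie left of the dashed limit at 100, and MBP stands above all others at 67.7 points.

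MBP, which codes for myelin basic protein, a main protein of compact myelin, had the largest change. Its rising transcript held 19.9%, 23.6% and 31.4% of the gene's transcript counts at GD60 (lowest, median and highest library) and 88.7%, 92.1% and 94.7% at GD90. All 6 libraries of GD90 lay above all 6 of GD60, and the change was 67.7 points (SE 1.99). At GD45 the share was 13.3%, 19.8% and 22.1%. The level of this transcript went from 4.70 ± 1.76 CPM (SD, n = 6) at GD60 to 364 ± 92.6 CPM at GD90. The other transcript also had a higher mean, and went from 14.3 ± 2.92 CPM to 29.8 ± 1.89 CPM.

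The exon table placed these reads. The last exon of the rising MBP transcript (chr1:147683954-147685288) held 59 to 121 counts per library at GD60 and 3812 to 8319 at GD90. The 78-base exon printed above held 0 counts in every library of GD60, 0 or 1 at GD45 and 15 to 63 (median 37) at GD90, and 0 counts in a library allow up to 3. The 3 upstream exons that only this transcript holds had at most 2 counts in any library. The other transcript was counted nearly all in 1 row (chr1:147649295-147653739), which is the 3′ end of that transcript, with 166 to 265 counts at GD60 and 451 to 509 at GD90. The MBP share is thus mainly a balance between the gene's final exon and that row, and both had higher counts in all libraries of GD90 than in any of GD60. In RefSeq, 49.3% of the exclusive bases of the rising transcript and 0% of those of the other lie in exons. When counts were divided by exclusive bases, the change was 45.5 points. The summed level of 11 oligodendrocyte marker genes of a list of 12, which holds MBP, moved with it, from 324 to 406 CPM at GD60 to 2344 to 3800 CPM at GD90, and none of the 11 was at 0 in all libraries of a day. In whole-brain RNA more cells of a type and more RNA per cell cannot be told apart.

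**Figure D2:**
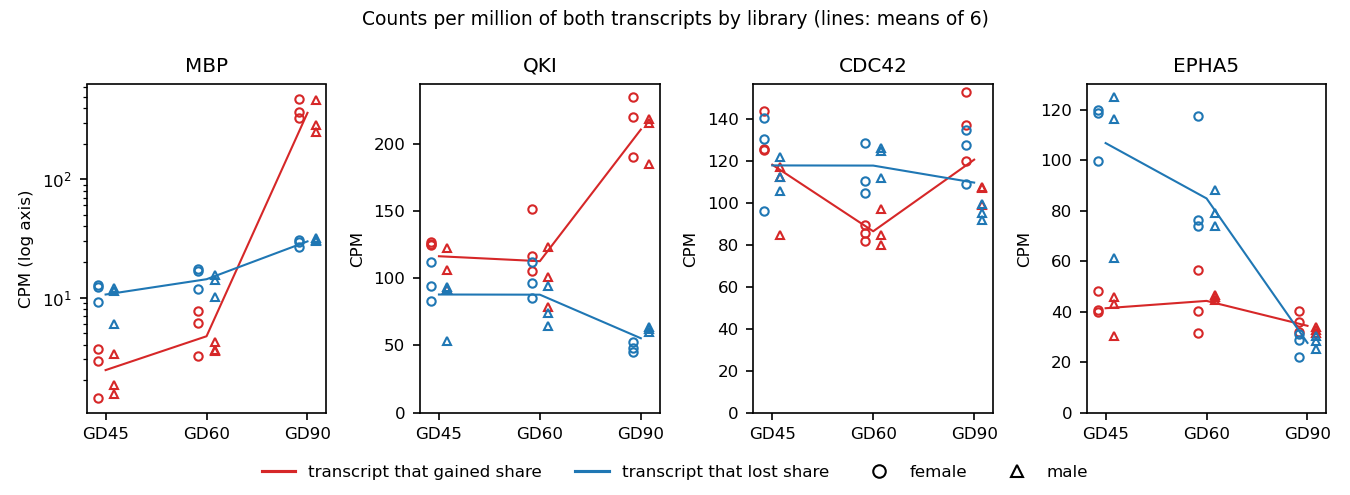
Level in CPM, scaled to the gene-table total (y axis, logarithmic for MBP) of the transcript that gained share (red) and the one that lost share (blue) in each of the 18 libraries, by gestation day (x axis), with lines through the means of 6. For MBP both means were higher at GD90 than at GD60, for QKI the means moved apart, for CDC42 the lines crossed, and for EPHA5 both means were lower at GD90, the blue one at 27.7 after 84.9 CPM.

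QKI is the quaking RNA-binding protein, which acts on splicing and on myelin RNAs including that of MBP. Its rising transcript held 52.3%, 57.1% and 57.8% at GD60 and 74.4%, 79.0% and 83.0% at GD90 (lowest, median, highest), again without overlap. The change was 23.02 points (SE 1.53), and the GD45 values of 52.7%, 57.1% and 63.5% lay around those of GD60. Here the transcripts moved apart in level. The rising one went from 113 ± 24.4 to 210.5 ± 19.04 CPM and the falling one from 87.7 ± 16.8 to 55.4 ± 7.94 CPM. Both differ at the 3′ end. The falling transcript ends in a last exon at chr1:4735513-4738547, whose coding bases are those printed above and belong to the end of the nuclear form known as QKI-5, and that row held 1056 to 2200 counts at GD60 and 657 to 906 at GD90. The row at chr1:4739100-4744599, which ends the rising transcript, went from 1292 to 2980 counts to 2717 to 3847.

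CDC42, a small GTPase that directs actin and cell polarity, is a member whose counted stretches include known alternative protein ends on both sides. The rising transcript carries the end of the widely used form, and the falling one the end of the form known from brain, which has a pair of cysteine codons just before its last codons. The rising share was 38.8%, 42.7% and 46.1% at GD60 and 50.9%, 52.2% and 53.8% at GD90, with no overlap and a change of 9.96 points (SE 1.17). At GD45 it was 43.0%, 49.8% and 56.6%, a range that spans values of both later days. The rising transcript had 86.4 ± 6.19 CPM at GD60 and 121 ± 20.6 at GD90, and the falling one 118 ± 9.90 and 110 ± 17.7, so the mean differed more in the widely used form.

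Among members of receptors, adhesion and the cytoskeleton, EPHA5, SEPTIN11 and PCDHAC2 had no overlap. EPHA5, an ephrin receptor of axon guidance, had 29.3%, 34.9% and 37.6% of its counts in the rising transcript at GD60 and 52.0%, 55.4% and 59.1% at GD90. Both its transcripts had lower means at GD90, the one with the farther 3′ end more so (84.9 ± 16.8 to 27.7 ± 3.37 CPM) than the one with the nearer end (44.3 ± 8.21 to 34.4 ± 3.32 CPM). SEPTIN11, a filament-forming GTPase, went from 24.2%, 28.2% and 39.2% to 42.2%, 53.0% and 61.4%. For PCDHAC2, in the clustered protocadherins of neuronal identity, each counted stretch is a variable first exon of its own. Of its 4 counted variable exons, the one nearest the constant exons held 46.1%, 56.2% and 60.3% at GD60 and 71.6%, 75.1% and 78.1% at GD90. The shares of the other 3 were lower, and went from 18.1%, 13.8% and 13.6% on average to 10.0%, 6.41% and 8.46%. Their counts were not all lower. In order along the chromosome, the median counts of these 3 went from 70.5, 59 and 68.5 at GD60 to 87, 87 and 63 at GD90. The median count of the exon nearest the constant exons went from 234 to 800.5.

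CADM1, a synaptic adhesion molecule, changed by 16.4 points (SE 4.69) with overlapping libraries. Its rising share was 19.5%, 26.9% and 40.4% at GD60 and 32.4%, 47.0% and 52.5% at GD90. In RefSeq, 0% of the exclusive bases of its rising transcript and 91.9% of those of the falling one lie in exons. KLC1, a light chain of the kinesin motor, changed by 8.45 points (SE 5.97). DCLK1, a doublecortin-like kinase of microtubules, went from a mean of 64.9% ± 2.89 to 71.5% ± 5.26 in the transcript whose exclusive bases lie nearer the 3′ end of the gene. Its change was 12.7 points in females and 0.46 in males. The libraries of KLC1 and DCLK1 overlapped as well.

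Members that act on RNA and chromatin formed the next group. PABPN1, which binds poly(A) tails in the nucleus, had 27.97%, 29.8% and 34.5% in its rising transcript at GD60 and 46.5%, 52.1% and 54.9% at GD90. The row chr7:75763060-75768696, which ends that transcript, held 352 to 522 counts at GD60 and 698 to 783 at GD90. It lies upstream of the stretch counted for the falling transcript, and 55.1% of the rising transcript's exclusive bases lie in exons that RefSeq gives to LOC100154044 and not to PABPN1. CHD3, a subunit of the NuRD remodelling complex, had 50.5%, 56.6% and 65.9% at GD60 and 67.1%, 76.4% and 81.5% at GD90. The counted CHD3 transcripts held 4.51% of the gene's counts and do not overlap in the genome. Of the exclusive bases of the rising one, 43.9% lie in exons that RefSeq names INHBA (partial) and none in exons of CHD3. PHF14, a PHD-finger protein, went from 45.8%, 69.1% and 79.8% to 80.2%, 86.3% and 91.8%. These 3 genes had no overlap. TSC22D4, of the TSC22 domain family, also had none, at 44.8%, 54.9% and 68.0% against 70.5%, 78.2% and 84.7%, while both its transcripts had higher means at GD90. None of its exclusive bases lie in RefSeq exons.

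The 4 members on the list of splicing regulators were QKI, SRSF6, KHDRBS3 and HNRNPU. KHDRBS3, of the STAR family, went from 27.3% ± 6.25 to 37.2% ± 6.80 and HNRNPU from 22.8% ± 8.45 to 31.2% ± 8.48, both with overlap. HNRNPU changed by -0.73 points in females and 17.5 in males. ADARB1, which edits adenosines in RNA, changed by 9.38 points (SE 4.42) and SFPQ by 5.48 (SE 1.38), also with overlap. The change of ADARB1 was 1.07 points in females and 17.7 in males. For SRSF6, an SR protein, the libraries overlapped too. The exclusive bases of the rising transcript lie to 99.9% in L3MBTL1, and the share went from 4.59%, 7.11% and 10.8% to 9.35%, 19.3% and 27.5%.

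Other members also joined what RefSeq gives to different genes. In 8 members the rising and the falling transcript each had at least 50% of their exclusive bases in exons of different RefSeq genes, as in 27 of all 253 genes. For AGBL4, a carboxypeptidase of tubulin, the falling stretch lay to 62.1% in BEND5, for ZNF202 the rising one to 94.6% in SCN3B, a sodium channel subunit, and for CLCN1, a chloride channel, the falling one to 96.8% in CASP2, a caspase. AGBL4 went from a mean of 11.9% ± 3.79 to 32.3% ± 3.13, ZNF202 from 62.2% ± 17.9 to 81.8% ± 13.99 and CLCN1 from 13.9% ± 3.56 to 29.3% ± 5.78. Of these, ZNF202 had overlapping libraries. The rising CLCN1 transcript was counted nearly all in 1 row (chr18:6902542-6904684), with 61 to 117 counts at GD60 and 97 to 161 at GD90. Its other exclusive exon rows held at most 3 counts in any library. In RefSeq, 481 of its exclusive bases also lie in exons of FAM131B on the opposite strand. Its share thus reads mainly that row, and hardly the transcript's other exclusive exons. Which gene these reads came from was not tested. NOS1AP, an adaptor of neuronal nitric oxide synthase, had the change next to that of MBP (35.0% ± 5.98 to 71.0% ± 5.35, no overlap), and its counted stretches lay to 66.3% and 100% in exons of C4H1orf226. In 9 members at least 50% of a counted stretch also lay in exons of a second Ensembl gene or of a RefSeq gene on the opposite strand. The latter held for 6 of them, such as DCTN4 with SMIM3. The strand setting of the counting is not given in the sources used here, so such reads cannot be told apart. Without the members of either kind, 85 remained, of which 14 had no overlap, beside 15 of the 202 such genes among the 253 (7.43%). These 85 still hold SRSF6, PABPN1, CHD3 and NOS1AP, whose values above are a balance with bases of another RefSeq name.

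**Figure D3:**
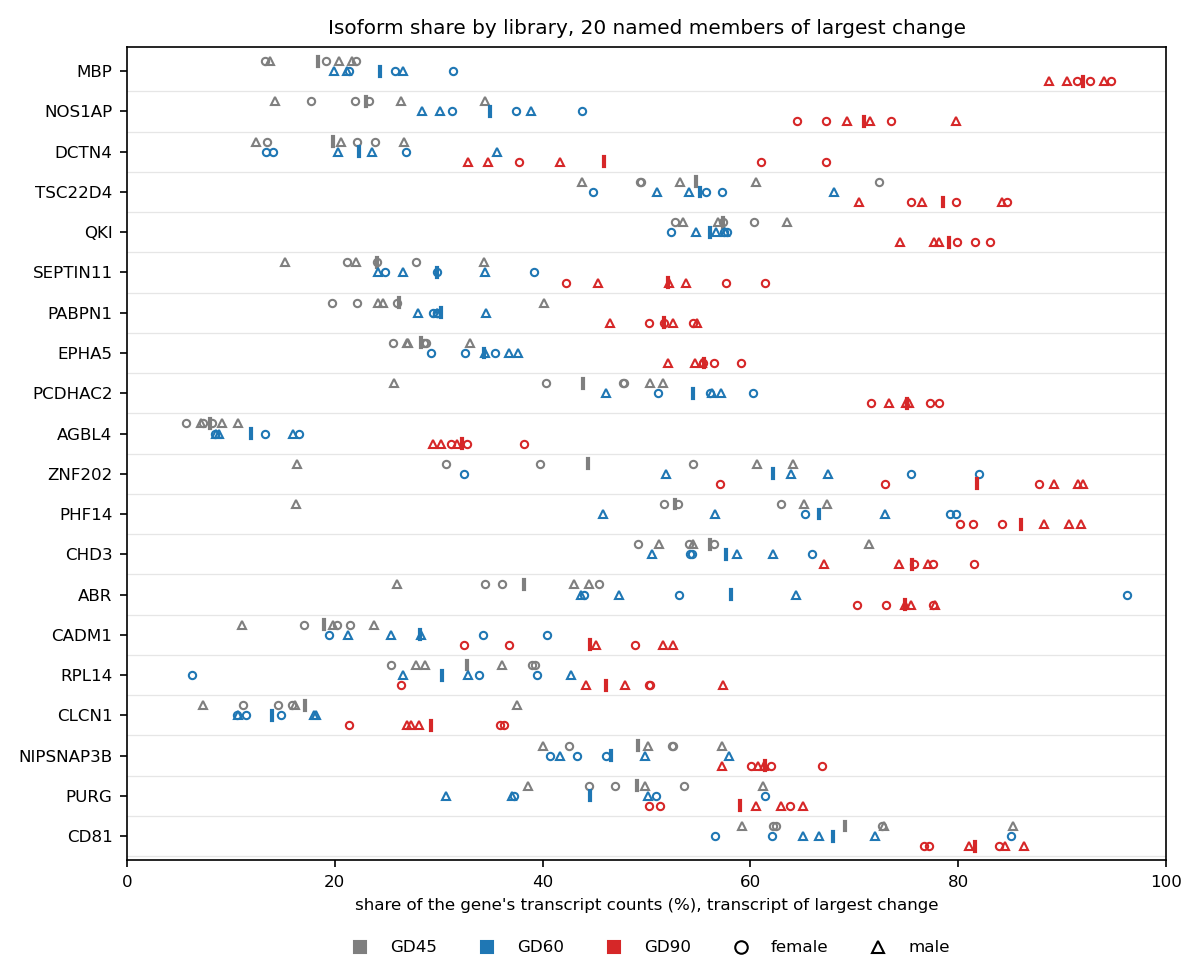
Share of the gene's transcript counts in % (x axis) of the transcript of largest change, in each library of GD45 (grey), GD60 (blue) and GD90 (red), for the 20 named members of largest change, with vertical bars at the means of 6, circles for females and triangles for males. MBP, NOS1AP, QKI and EPHA5 are among the rows where red and blue marks do not meet, while in DCTN4, ABR, RPL14 and CD81 they do.

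The remaining named members had overlapping libraries. DCTN4, a dynactin subunit, changed by 23.6 points (SE 6.88), from 13.3%, 21.9% and 35.7% to 32.8%, 39.7% and 67.3%. Its change was 37.3 points in females and 9.87 in males. Of the rising transcript's exclusive bases, 1.65% lie in RefSeq exons of DCTN4 and 460 bases in those of SMIM3 on the opposite strand. Nearly all its counts lay in a single row (chr2:151762504-151763051), with 18 to 41 at GD60 and 58 to 107 at GD90. ABR changed by 16.7 points (SE 8.33), and at GD60 it ranged from 43.7% to 96.2%. RPL14, a ribosomal protein gene, changed by 15.8 points (SE 6.85), PURG, of the PUR family of nucleic acid binding proteins, by 14.4 (SE 5.38) and CD81, a tetraspanin, by 13.7 (SE 4.34). NIPSNAP3B changed by 14.8 points (SE 2.94), as a balance between exons of LOC100154081 (100% of the rising stretch) and LOC100739365 (96.4% of the falling one) in RefSeq.

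Over all 100 members, the levels of the rising and the falling transcript went in opposite directions in 46, both were lower at GD90 in 40 and both higher in 14. Over all 253 genes these counts were 75, 106 and 72. The whole gene had a higher mean level at GD90 in 36 members and a lower one in 64, with a median log2 difference of -0.14, beside -0.10 over the 253 genes. Relative to the bases that a gene's transcripts share, most exclusive bases of the rising transcript lay on the 3′ side in 51 members, on the 5′ side in 27 and between them in 22. For the falling transcript the 3′ side held most of them in 63 members. By the mean position of its exclusive bases, the rising transcript lay nearer to the 3′ end of the gene in 35 of the 100 members and in 37.2% of the 253 genes. This weighs bases and not reads, and for MBP, whose reads lie in the final exon, it gives the 5′ side.

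The exon table was used as a check on where the shift lies. Exon rows were assigned to a transcript where they overlapped its exclusive bases, and their shares were compared in the same way. All 100 members could be checked, and 99 changed in the same direction, with a median of 8.48 points. The exception was CD81, which changed by -4.17 points in the exon table. Over the 253 genes 241 of 251 had the same direction. With only rows that lie wholly inside exclusive bases, 55 members could be checked and 41 had the same direction. Both tables count the same reads, so this is no second measurement.

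The libraries differed in how far reads gathered at the 3′ end. Over 1503 genes with 1 transcript and at least 5 exons, the median percent of counts in the last exon was 43.8% to 57.9% at GD60, 41.2% to 56.3% at GD90 and 48.2% to 66.9% at GD45. GD90 minus GD60 was -3.87 percent points (exact permutation test, two-sided p = 0.262, n = 6 and 6). Within males the libraries lay at 51.5% to 52.5% at GD60 and 41.2% to 43.2% at GD90, and within females at 43.8% to 57.9% and 45.0% to 56.3%. The members' changes followed the sexes unequally. The median absolute change was 13.6 points in males and 7.37 in females, and 26 of the 100 members changed in opposite directions in the sexes. Opposite directions and larger changes in males were also common among the genes outside the limit. The choice by the mean of both sexes favours equal directions, so these values are no trait of the members. Among named members of equal direction, PHF14 changed by 7.20 points in females and 31.8 in males, ZNF202 by 9.30 and 29.8, CADM1 by 7.95 and 24.8, PURG by 5.30 and 23.5, ABR by 9.20 and 24.3, and KHDRBS3 by 4.44 and 15.4. All 19 members without overlap changed the same way in both sexes, which the lack of overlap fixes. Their medians were 17.8 points in males and 19.9 in females. When last-exon percent was added to the fit of share on gestation day, 93 of 100 members and 19 of 19 without overlap kept their direction. Over all 253 genes 188 kept it, and the choice of members by size of change favours keeping it. The median change of the members in this fit was 8.17 points. The change of ZNF202 went from 19.6 to 9.33 points and that of PURG from 14.4 to 9.37, while MBP stayed at 67.3. In 39 of the 100 members, and in 97 of the 253 genes, the change in this fit was less than the unadjusted one divided by 1.5.

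**Figure D4:**
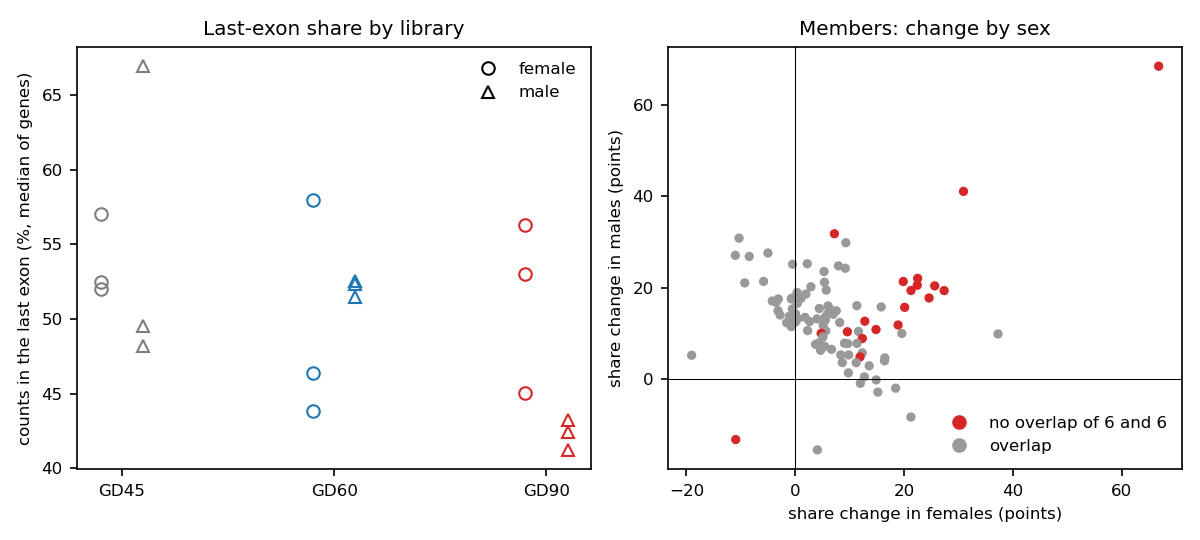
Left, median percent of counts in the last exon over 1503 genes (y axis) for each library by gestation day (x axis), where the 3 males of GD90 lie at 41.2% to 43.2%, below all libraries of males at GD60. Right, change in share from GD60 to GD90 in points in females (x axis) and males (y axis) for the 100 members. The 19 without overlap (red) lie in the quadrants of equal sign, which their lack of overlap fixes, and 26 of the others do not.

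The sex of the fetus was a comparison that the choice of members did not use. Male and female shares were tested within each gestation day over all 525 transcripts of the 253 genes with edgeR's test of differential usage. No transcript passed an adjusted p of 0.05 at GD45, GD60 or GD90, that is 0% at each day, and so none of the 216 transcripts of the members. At an unadjusted p under 0.05 there were 2, 3 and 35 transcripts, in 1, 0 and 9 members. The 2 and 3 of 525 at GD45 and GD60 are fewer than chance gives at that limit, so the test was conservative there. The smallest adjusted p (Benjamini-Hochberg) was 0.50 at GD90. The test by limma with voom called 0 at each day as well. In simulated counts with 50 genes changed 4-fold in males of GD90, the test recovered 94% with 0 false genes. Smaller differences were not tested in this way. The simulated counts had a fixed spread that was not estimated from these libraries, so that recovery may not hold for them. The lack of calls therefore does not show equal shares in the sexes.

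The genes that code for splicing regulators were tested for gene-level change between GD60 and GD90. They were listed by role and not by the shares, and 4 of them are also members. Of 72 listed genes 66 could be tested with edgeR's quasi-likelihood test, and 36 were lower and 3 higher at GD90 (adjusted p under 0.05), beside 20.9% lower and 21.4% higher among all 16325 genes tested. Outside the members it was 34 lower, 2 higher and 26 not past the threshold, of 62. The median log2 fold change was -0.33 for these 62 and -0.01 for all genes. The count of higher genes was 5 when male GD45 replicate 17 was left out.

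The largest decreases among those past the threshold were in MSI1, HNRNPA1, PTBP2 and HNRNPD. MSI1, the musashi RNA-binding protein of neural progenitors, lay at 81.7, 111 and 124 normalised CPM (lowest, median, highest) at GD60 and at 44.0, 50.6 and 52.9 at GD90 (log2 fold change -1.10, SE 0.10, edgeR adjusted p = 2.94e-07). HNRNPA1, an abundant hnRNP that blocks exons, lay at 694, 793 and 902 and at 340, 399 and 453 (-0.99, SE 0.08, adjusted p = 5.27e-08), though its reads can be shared with near-identical copies. PTBP2, the neuronal polypyrimidine tract-binding protein, lay at 165, 176 and 221 and at 93.5, 100.6 and 111 (-0.84, SE 0.08, adjusted p = 4.09e-07). In each of these genes all 6 libraries of GD90 were below all 6 of GD60, as in HNRNPD (-0.82, SE 0.07, adjusted p = 1.30e-07).

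The genes that rose were MBNL2 and RBFOX3 outside the members. MBNL2, a muscleblind protein of late development, lay at 17.8, 20.5 and 26.7 CPM at GD60 and at 32.3, 41.1 and 47.6 at GD90 (log2 fold change 0.93, SE 0.10, adjusted p = 2.35e-06). RBFOX3, known as the neuronal marker NeuN, lay at 63.8, 66.3 and 76.6 and at 94.4, 114 and 120 (0.71, SE 0.13, adjusted p = 0.000314). QKI, a member, lay at 177, 259 and 303 and at 321, 362 and 409.

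**Figure D5:**
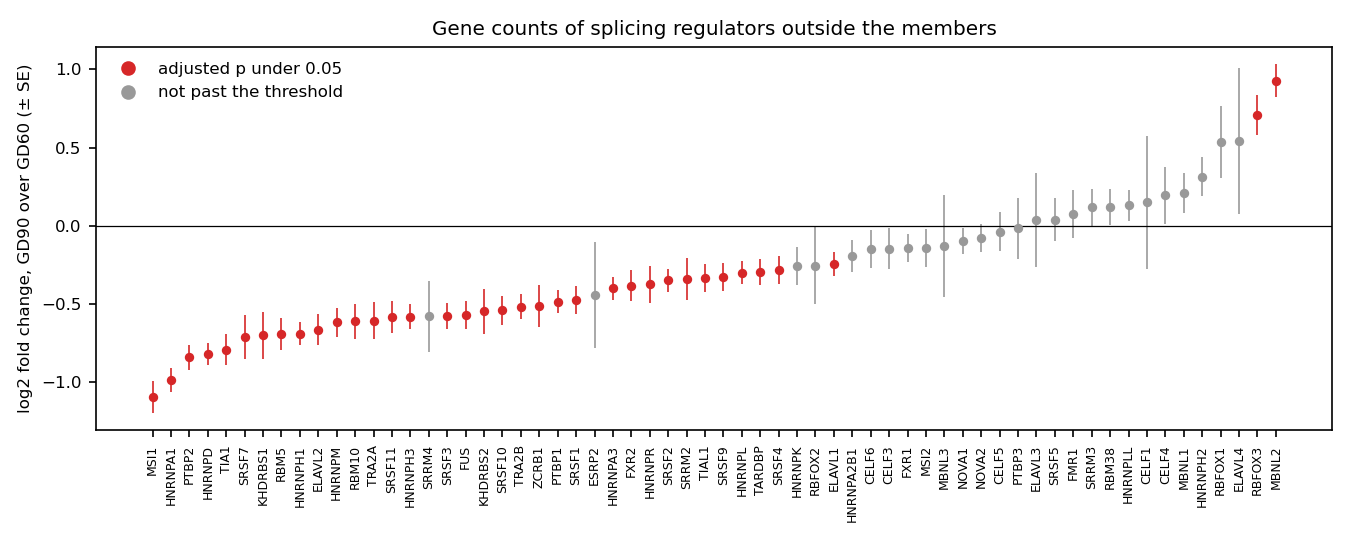
Log2 fold change of gene counts, GD90 over GD60 (y axis, error bars are ± SE), for the 62 splicing regulator genes outside the members, in order of the change (x axis). Red points passed an adjusted p of 0.05, 34 of them below 0 and 2 (RBFOX3 and MBNL2) above.

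The other function lists held few members, since few of their genes met the count minimum. The list of neural splice targets had 7 genes among the 253, of which MBP, SEPTIN11, CADM1, CDC42 and DCLK1 were members. Of these 5, 3 had no overlap, beside 7.91% of all 253 genes, and the choice of members raises this count. The lists of splicing regulators, cytoskeleton and transport, and RNA processing had 4, 3 and 3 members of 7, 10 and 9 eligible genes. Adhesion and guidance had 2 of 3, chromatin and transcription 1 of 4, and the lists of synapse and vesicle and of channels, receptors and transporters 0 of 2 each. No listed gene of metabolism and mitochondria met the minimum. In no list were 85 members.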

How the data were processed

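Per the labels, Trimmomatic was used for trimming, HISAT2 for alignment to Sscrofa11.1 and featureCounts for assignment of reads to Ensembl features. The authors deposited raw read counts per gene, exon and transcript, without normalization, in 22 columns for 18 libraries, since 4 libraries have 2 runs, which were summed here. Options for strand and shared reads are not given in the sources used here. The members and gene lists were chosen with earlier results of these data known.

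Named genes were the 20 members of largest change with a symbol, the members of the lists of splicing regulators and neural splice targets, the 3 of largest change in each other list, members called for sex, 3 genes on each side of the limit, and up to 4 called regulators of largest change in each direction. Shares between sexes were tested with diffSpliceDGE and gene counts with the quasi-likelihood test of edgeR 4.0.16 (6 groups, 18 libraries, TMM, filterByExpr) in R 4.3.3, with Benjamini-Hochberg adjustment. Exclusive bases were compared with RefSeq exons of the same build, where 84.9% of the internal exons of these transcripts matched at both ends. The steps were tested on simulated counts. The alternatives included DESeq2 1.42.0 and limma 3.58.1. Counting errors take reads as independent molecules. The p-values measure the spread between fetuses, some of which may share a dam, since the labels give litter size only. If fetuses of equal litter size share a dam, the p-values and SE of GD90 against GD60 may be too small.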

Additional observations from a re-analysis of the deposited data

Results flagged for a closer look

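In groups of 6 libraries, a library was set apart where its gap to the nearest other exceeded 0.625 of the group's range, which chance gives in about 5% of groups. Among the 20 named members of largest change this met 6 shares. Male GD45 replicate 17 held 40.1% for PABPN1 (others 19.8% to 26.01%), 16.3% for PHF14 (others 51.7% to 67.3%), 71.4% for CHD3 (others 49.2% to 56.5%) and 37.5% for CLCN1 (others 7.36% to 16.2%). This library also had the highest last-exon percent, 66.9%, and its part in these values was not tested. Male GD60 replicate 16 held 34.5% for PABPN1 (others 27.97% to 29.9%), and female GD90 replicate 9 held 38.2% for AGBL4 (others 29.5% to 32.7%). Over all members and days, 21 of 300 groups were set apart in this way, 13 of them by male GD45 replicate 17, which entered no share at GD60 or GD90.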

How the results depend on the processing

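The rule chose partly other genes under other settings. With a minimum of 20 counts 588 genes were eligible and 42 of the 100 members were chosen again, with a median change of 13.9 points, and with a minimum of 100 counts 121 and 52, with 5.42 points, and with counts per exclusive base 80 of the 100 were. With females alone 42 of the chosen genes had no overlap and with males alone 85, in groups of 3, beside 19.8% and 56.1% of all 253 genes, and 61 and 73 members were chosen again. Leaving out each library gave 20 to 25 genes without overlap, beside 8.3% to 10.3% of all 253 genes. Groups of fewer libraries separate more easily. The median change was then 8.30 to 10.3 points, and 97 to 99 members had the same direction in the exon table. With only exon rows wholly inside exclusive bases 41 of 55 members had the same direction. The changes of TSC22D4, PABPN1, CADM1, CLCN1 and PURG went to 13.6, 8.33, 5.03, 8.07 and 4.34 points per exclusive base. No transcript was called for sex under limma, other size factors, no minimum, the litter as replicate block or with any library left out. Splicing regulators numbered 5 higher with only the 12 libraries of GD60 and GD90, 4 with DESeq2 and with other size factors, and 3 to 5 with each library left out (5 without male GD45 replicate 17), with 34 to 38 lower in these fits. No paired analysis was possible for GD90 against GD60 because each litter is of 1 gestation day. The adjustment for last-exon percent and the count without second genes were chosen after seeing the data. Depth limits the shares, since 1 member transcript had 2 counts in a library of GD60 (ABR).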
